A study of Mus musculus with 9 samples.

Results

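Opposite-strand transcripts are genes whose symbol is that of another gene followed by os, such as Sorbs2os for Sorbs2. They were found by symbol: a gene counted when its name was another listed symbol followed by os, os1, os2 or os3 and it was present in both UMI count tables of the series. Of 16939 genes in both tables, 115 met this rule, with 110 partner genes. GENCODE vM21 gene models (GRCm38, the mm10 assembly) placed 112 of the 115, and all 112 lay on the strand opposite to their partner. The annotation calls 98 of them antisense, 6 lincRNA and 8 protein-coding, so a few of these symbols are ordinary mRNA genes that were named after a neighbour.

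The placed pairs fell into 6 arrangements. Inside their partner, within its span on the other strand, lay 43 transcripts, and 3 lay around their partner. The 5' ends overlapped in 32 pairs and faced each other without overlap in 15. Without overlap the genes run apart, and with overlap each gene first runs across the shared stretch, past the start of the other. The 3' ends overlapped in 14 pairs and faced each other without overlap in 5. Exons of both genes overlapped in 68 pairs, and the 5' ends were within 1000 bases of each other in 35.

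Antisense transcripts arise on the strand opposite to a gene and are mostly noncoding. Those that start beside a gene's own promoter come from a divergent or bidirectional promoter, and they often share the tissue pattern of the neighbouring gene. Those that lie within a gene need a start of their own inside it, and their reads fall in the introns and exons of the host on the other strand. In nuclei, where introns are still present in the RNA, a 3' counting assay can therefore give host and antisense reads at the same place, and only the strand of a read tells them apart. Several partners here are known regulators in the kidney, such as Hnf4a, a transcription factor of the proximal tubule, and Wt1, a transcription factor of podocytes.

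The study profiled GFP-sorted kidney nuclei of 9 male mice aged 11 to 19 weeks to follow proximal tubule cells after ischemia-reperfusion injury (IRI). Both renal pedicles were clamped for 18 min, and 2 mice were taken 7 days and 3 mice 28 days later. These 5 mice carried Krt20T2A-CE; INTACTnuGFP/+ and received 0.05 mg/g tamoxifen, a line made to isolate cells with Krt20, a keratin of injured tubules, so their sort holds labelled cells only. The 4 controls, 1 without surgery and 3 with sham surgery, carried Six2TGC; Rosa26rtTA ; pTRE-H2BeGFP, received 625 mg/kg doxycycline in the food and had GFP in all nephron cells. Genotype, agent and sorted population therefore differ between control and IRI together with the injury and cannot be told apart from it. Each library is 1 mouse, and levels are given as CPM (UMIs of a gene relative to all UMIs of the summed nuclei, scaled as parts per 1e6), in the order control 1 to 4, day 7 mouse 1 and 2, day 28 mouse 1 to 3.

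The libraries held 1397 to 4564 nuclei and 1833617 to 14641038 UMIs each, 27738 nuclei in all, and 132 cell barcodes occurred in 2 libraries. Marker genes named 21786 nuclei proximal tubule-like (PT-like), 993 thick ascending limb-like (TAL-like) and 577 distal-like. The cell barcodes of all 4 controls and day 28 mouse 1 came from the v2 set of the Chromium kit, and those of both day 7 mice and day 28 mice 2 and 3 from the v3 set. The share of Malat1 among all UMIs was 10.3% and 6.75% for day 7, where the controls had 19.8% to 24.0% and the day 28 libraries 16.0% to 17.7%. The part of the Malat1 share in the results was not tested, and fits with the barcode set as a term are given beside the results they change. All controls have v2 and both day 7 libraries v3 barcodes. That term therefore rests on day 28 mouse 1 against mice 2 and 3 alone, and calls kept or lost under it depend on that mouse. The 2 day 7 libraries stood apart for transcripts that lie inside another gene on the other strand, in PT-, TAL- and distal-like nuclei and also among genes outside the 115. In PT-like nuclei, noncoding genes with no opposite-strand gene over them were also lower at day 7 than in controls (median log2 change -1.25). The strand setting used in counting is not given in the sources used here, and without strand the reads of a transcript and of a host at the same place cannot be told apart.

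Promoter sequences show how the arrangements differ. RefSeq windows of 250 bases before to 50 bases after a start (GRCm38.p6) were found for 70 of the 115 transcripts, and for 59 the start lay within 500 bases of the GENCODE 5' end. The 6 given here are the transcripts named in the results that represent transcripts inside their partner (Fhitos, Ccdc34os), overlapping 5' ends (Hnf4aos, Man2c1os), facing 5' ends (Wt1os) and overlapping 3' ends (Slc13a2os). Each is written 5' to 3' along the transcript's own strand in lower case, with CG dinucleotides in capitals.
Fhitos: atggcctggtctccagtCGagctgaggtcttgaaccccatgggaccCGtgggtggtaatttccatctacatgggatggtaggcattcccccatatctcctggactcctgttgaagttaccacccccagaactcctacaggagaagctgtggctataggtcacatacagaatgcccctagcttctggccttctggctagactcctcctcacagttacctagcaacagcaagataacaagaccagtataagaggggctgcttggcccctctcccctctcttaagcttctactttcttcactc
Ccdc34os: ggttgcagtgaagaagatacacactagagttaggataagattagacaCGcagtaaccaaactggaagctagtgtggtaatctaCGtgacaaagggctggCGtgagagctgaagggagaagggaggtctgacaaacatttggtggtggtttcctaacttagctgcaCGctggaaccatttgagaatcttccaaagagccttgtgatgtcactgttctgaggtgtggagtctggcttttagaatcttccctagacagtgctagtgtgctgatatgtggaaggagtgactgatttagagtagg
Hnf4aos: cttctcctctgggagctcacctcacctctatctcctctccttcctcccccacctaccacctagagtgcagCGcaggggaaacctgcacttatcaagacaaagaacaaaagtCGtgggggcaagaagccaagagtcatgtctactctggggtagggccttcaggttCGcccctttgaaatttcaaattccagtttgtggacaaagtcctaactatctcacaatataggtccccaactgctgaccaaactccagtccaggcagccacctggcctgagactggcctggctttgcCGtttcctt
Man2c1os: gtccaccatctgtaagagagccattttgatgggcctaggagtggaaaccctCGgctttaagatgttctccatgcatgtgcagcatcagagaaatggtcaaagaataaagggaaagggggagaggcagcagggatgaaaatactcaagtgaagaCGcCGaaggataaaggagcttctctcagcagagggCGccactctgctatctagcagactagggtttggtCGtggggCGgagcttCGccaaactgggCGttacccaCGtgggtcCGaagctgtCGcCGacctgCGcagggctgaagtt
Wt1os: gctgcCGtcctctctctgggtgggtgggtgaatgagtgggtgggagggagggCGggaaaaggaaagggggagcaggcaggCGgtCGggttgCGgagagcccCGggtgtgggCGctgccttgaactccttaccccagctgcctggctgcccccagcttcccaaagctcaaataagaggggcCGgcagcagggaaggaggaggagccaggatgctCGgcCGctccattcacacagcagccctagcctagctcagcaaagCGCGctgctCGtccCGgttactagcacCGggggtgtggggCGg
Slc13a2os: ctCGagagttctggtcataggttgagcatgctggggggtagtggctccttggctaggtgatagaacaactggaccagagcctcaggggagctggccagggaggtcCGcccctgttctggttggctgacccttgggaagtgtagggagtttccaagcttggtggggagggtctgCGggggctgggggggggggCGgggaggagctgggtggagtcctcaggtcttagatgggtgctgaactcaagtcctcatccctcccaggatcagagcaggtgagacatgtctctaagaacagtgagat

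The Fhitos window is at chr14:10738303-10738602 (plus strand) and holds 2 CG, and the Ccdc34os window at chr2:110050430-110050729 (minus strand) holds 4. Those of Hnf4aos at chr2:163541672-163541971 (minus strand) and Slc13a2os at chr11:78394235-78394534 (plus strand) hold 4 each. The Man2c1os window at chr9:57131241-57131540 (minus strand) holds 13 and the Wt1os window at chr2:105126461-105126760 (minus strand) holds 16. Over the 59 windows the median number of CG was 4.5 for the 18 transcripts inside their partner, 18.5 for the 20 with overlapping 5' ends and 30 for the 9 with facing 5' ends, against 7 over 27025 RefSeq promoters with 1 per gene. The letters GGGCGG or their reverse complement CCGCCC, the core of a GC box, were present in 16.7% of the windows inside a partner, 60% of those with overlapping and 77.8% of those with facing 5' ends, against 35.9% of all promoters. The letters TATAAA, searched on the transcript's strand, were in 1.69% of the 59 windows and in 8.88% of all promoters. Windows inside a partner thus mostly had few CG (2 to 26), and those with facing 5' ends had 16 to 54, as in the Wt1os window, whose start is 19 bases from that of Wt1.

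In PT-like nuclei, 83 of the 115 transcripts had enough UMIs to be tested, among 14239 genes, with edgeR's quasi-likelihood test on the sums per library and Benjamini-Hochberg adjustment over all genes. At day 7 against control, 6 rose and 29 fell. That is 42.2% called where 51.1% of all genes tested were called, 26.2% higher and 24.9% lower. The median log2 change of the transcripts was -0.44 against 0.004 over all genes. At day 28 against control 25 rose and 7 fell, 38.6% called against 45.3% of all genes, 24.1% higher and 21.2% lower, and the median was 0.59 against 0.04. So the share called was no higher than that of all genes in either comparison with control, and the direction was mostly down at day 7 and mostly up at day 28. Both comparisons use the same controls. With the barcode set as a term 12 transcripts were called at day 7 (3 higher, 9 lower) and 14 at day 28 (12 higher, 2 lower), and without day 7 mouse 2 or day 28 mouse 2 the counts were 19 and 18. The scaling of the fit moves log2 changes by -0.24 at day 7 and -0.26 at day 28 against control relative to ratios of CPM, and no called transcript had CPM means in the other direction.

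Compared directly, the day 28 libraries held more of these transcripts than the day 7 libraries. At day 28 against day 7, 25 of the 83 rose and 0 fell by edgeR, against 4.26% of all genes higher, 1.27% lower and 5.53% called in all. At an unadjusted p under 0.05, 40 were higher and 1 was lower, and DESeq2 called 28 higher and 0 lower. The median log2 change was 1.23 against -0.03 over all genes. Of the 101 partners tested, 1 rose and 2 fell, with a median of -0.16. Leaving out day 7 mouse 2 gave 9 higher, leaving out day 7 mouse 1 gave 14, and a fit of the 5 IRI libraries alone gave 15.

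The transcripts inside their partner were 30 of the 83 tested. They made up 18 of the 25 that rose from day 7 to day 28 and 14 of the 29 that fell at day 7 against control. Summed over all 43, their level in PT-like nuclei was 168, 218, 221 and 210 CPM in the controls, 61.3 and 39.9 CPM in the day 7 libraries and 476, 470 and 481 CPM in the day 28 libraries. The 3 groups did not overlap, day 7 mouse 2 was the lowest library and the day 28 libraries were the highest. Day 28 mouse 1, with v2 barcodes like the controls, had 476 CPM, and mice 2 and 3, with v3 barcodes like day 7, had 470 and 481 CPM. These sums are weighted to the more abundant transcripts. Taken singly, 14 of the 43 had all 3 day 28 libraries above all 4 controls, against 29.0% of all genes. For 13 of the 43 both day 7 libraries lay below all 4 controls, against 22.6% of all genes. The 41 partners that host the 43 had another order of groups, with sums of 5720 to 6668 CPM in controls, 9874 and 10206 CPM at day 7 and 7402 to 8865 CPM at day 28. At day 28 the sums of hosts and transcripts both lay above all controls. At day 7 the hosts lay above and the transcripts below them.

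Sums of the other arrangements were less far apart, except for the 3 transcripts around their partner. The 32 transcripts with overlapping 5' ends summed to 754 to 919 CPM in controls, 853 and 1171 CPM at day 7 and 811 to 1073 CPM at day 28, and the groups overlapped. The 15 with facing 5' ends summed to 125 to 215, 157 and 190, and 184 to 218 CPM, again with overlap. The 14 with overlapping 3' ends summed to 74.3 to 97.2 CPM in controls, 97.6 and 86.9 CPM at day 7 and 155 to 210 CPM at day 28, where all 3 libraries were above the rest. The 5 with facing 3' ends summed to 53.2 to 71.8, 42.7 and 46.3, and 46.3 to 96.2 CPM. The 3 around their partner summed to 1.26 to 2.42 CPM in controls, 9.36 and 4.27 CPM at day 7 and 12.7 to 35.4 CPM at day 28, without overlap.

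**Figure D1:**
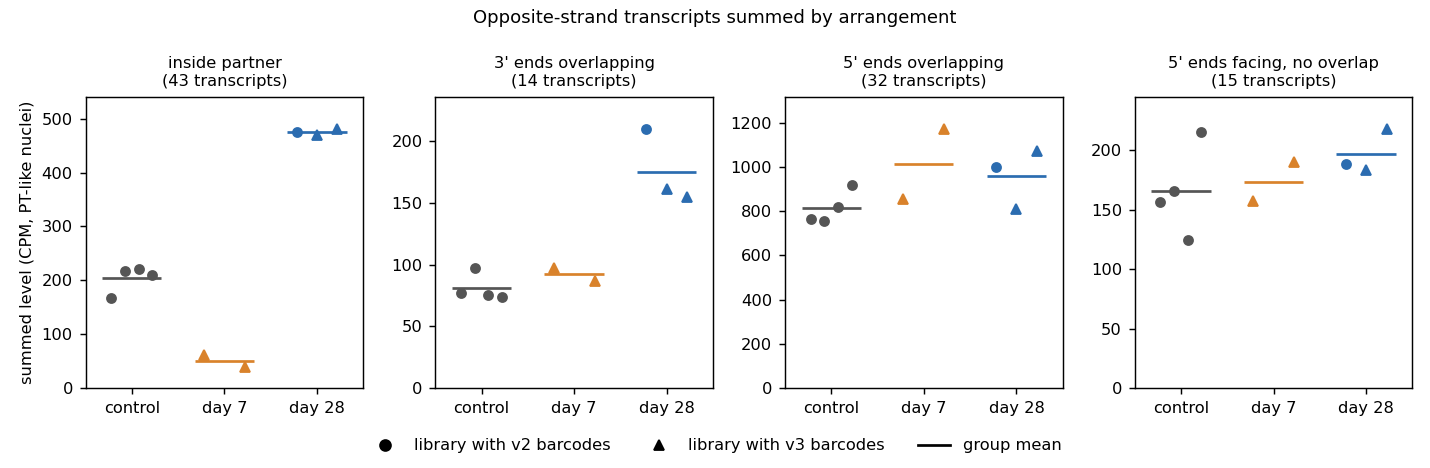
Summed level of opposite-strand transcripts in PT-like nuclei (vertical axis, CPM) for 4 arrangements, 1 point per library by group, with the barcode set as the symbol and the group mean as a line. Inside their partner the day 7 libraries lie at 61.3 and 39.9 CPM, below all 4 controls, and the day 28 libraries at 470 to 481 CPM, above them, while both 5' arrangements overlap between groups.

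The tests were also split by arrangement. This split was chosen after the pattern had been seen, and it has no test of its own. Of the 30 tested transcripts inside their partner, 1 rose and 14 fell at day 7 against control (median log2 change -1.38), and 14 rose and 1 fell at day 28 against control (1.47). At day 28 against day 7, 18 rose and 0 fell by edgeR (median 3.61), where 23 were higher and 0 lower at an unadjusted p under 0.05 and DESeq2 called 17 higher and 0 lower. Medians with transcripts that had no UMI in a group set at their bound were the same to 2 decimals for these 30. Of the 25 with overlapping 5' ends, 2 rose and 7 fell, 4 rose and 1 fell, and 2 rose and 0 fell in the same order, with medians of -0.20, 0.18 and 0.41; in the last, 7 were higher and 1 lower at an unadjusted p under 0.05 and DESeq2 called 4 higher and 0 lower. Of the 11 with facing 5' ends, 1 rose and 2 fell, 2 rose and 2 fell, and 0 were called at day 28 against day 7 by edgeR or DESeq2, where 2 had an unadjusted p under 0.05, with medians of 0.07, -0.015 and 0.03. Of the 11 with overlapping 3' ends, 1 rose and 5 fell, 3 rose and 2 fell, and 4 rose and 0 fell, with medians of -0.15, 0.59 and 1.33; in the last, 6 were higher and 0 lower at an unadjusted p under 0.05 and DESeq2 called 5 higher and 0 lower.

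**Figure D2:**
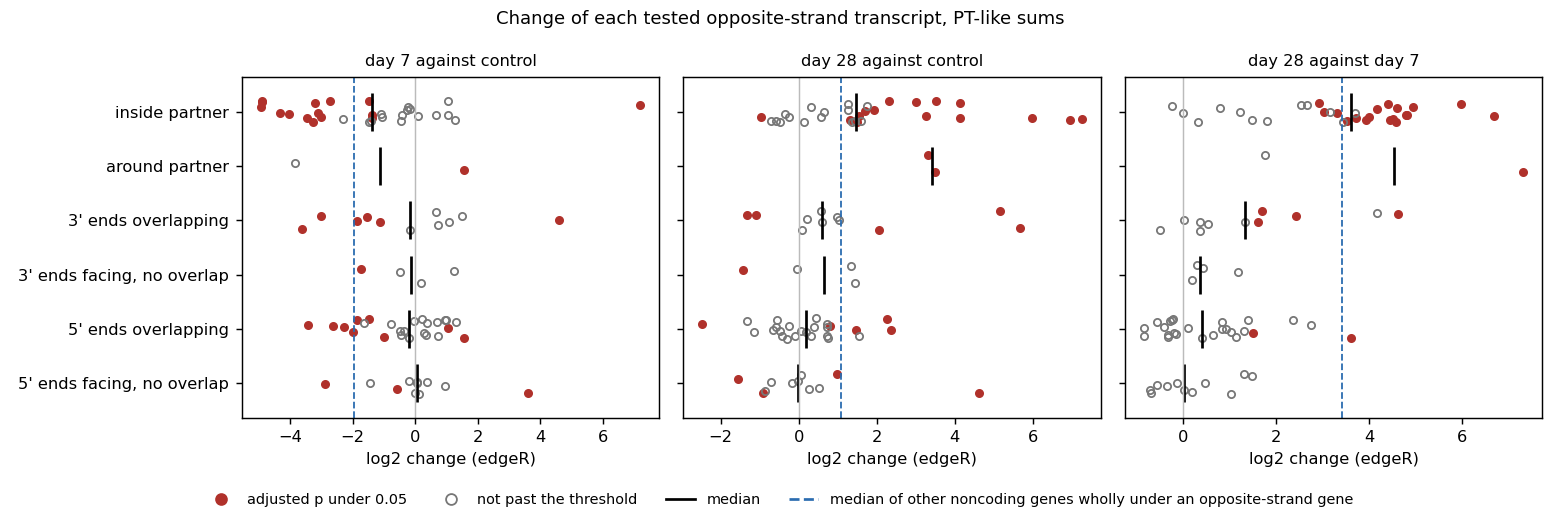
Fitted log2 change (horizontal axis) of each tested transcript by arrangement in the 3 comparisons of PT-like sums; red points passed an adjusted p of 0.05, black bars are medians, and the dashed line is the median of other noncoding genes that lie wholly under an opposite-strand gene. Transcripts inside their partner lie to the left at day 7 against control and to the right at day 28 against day 7, with medians of -1.38 and 3.61; points for transcripts without any UMI in a group depend on the count that the fit adds.

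Genes outside the 115 were also counted by whether they lie under a gene of the other strand. Among tested noncoding genes wholly within the span of opposite-strand genes, the transcripts described here left out, 375 had a median log2 change of -1.95 at day 7 against control, 1.10 at day 28 against control and 3.41 at day 28 against day 7. At day 7 against control 4.8% of them rose and 46.1% fell, at day 28 against control 41.3% rose and 9.07% fell, and in the last comparison 52.5% rose and 0.267% fell. Noncoding genes with no opposite-strand gene over them (399 tested) had medians of -1.25, -0.38 and 0.39, and 4.76% rose at day 28 against day 7. Of these 399, 14.5% rose and 39.1% fell at day 7 against control. Lower levels at day 7 were thus not limited to noncoding genes under another gene. Protein-coding genes wholly under an opposite-strand gene (330) had medians of -0.53, 0.05 and 0.41, with 12.4% higher at day 28 against day 7, and protein-coding genes with none over them (6803) had 0.01, -0.06 and -0.07, with 1.25% higher. The other noncoding genes in the same position thus had a median from day 7 to day 28 close to the 3.61 of the transcripts inside their partner.

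Counted by libraries, both day 7 libraries lay below all 3 day 28 libraries for 25 of the 43 transcripts inside their partner, where 19.5% of all 16939 genes and 58.2% of the other noncoding genes wholly under an opposite-strand gene did so. Both day 7 libraries lay below all 4 controls for 13 of the 43, against 22.6% and 31.9%. All 3 day 28 libraries lay above all 4 controls for 14 of the 43, against 29.0% and 36.6%. Day 7 mouse 2 was lower than day 7 mouse 1 for 30 of the 43 and higher for 9, and 4 of the 43 had no UMI in either PT-like sum of day 7.

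TAL-like and distal-like nuclei gave the same order of the groups. In TAL-like nuclei the 43 transcripts summed to 279, 224, 259 and 116 CPM in controls, 74.6 and 49.4 CPM at day 7 and 604, 467 and 478 CPM at day 28. In distal-like nuclei the sums were 181, 250, 100 and 141 CPM, then 66.5 and 77.1 CPM, then 519, 562 and 622 CPM. The groups did not overlap in either class, although the day 7 sums rest on few UMIs, 10 and 3 in TAL-like and 8 and 4 in distal-like nuclei. In intercalated-like nuclei the sums were 187, 570, 130 and 196 CPM in controls, 37.7 and 0 CPM at day 7 and 397, 470 and 486 CPM at day 28, on at most 17 UMIs a library. There day 7 was again below both other groups, and control 2 lay above every day 28 library. PT-like nuclei were also summed by state. In nuclei of clusters with mostly uninjured markers the sums were 168 to 221 CPM in controls, 79.7 and 69.4 CPM at day 7 and 426 to 484 CPM at day 28. In nuclei of clusters with mostly injured markers, of which each control had at most 6, they were 59.5 and 37.0 CPM at day 7 and 476 to 488 CPM at day 28.

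**Figure D3:**
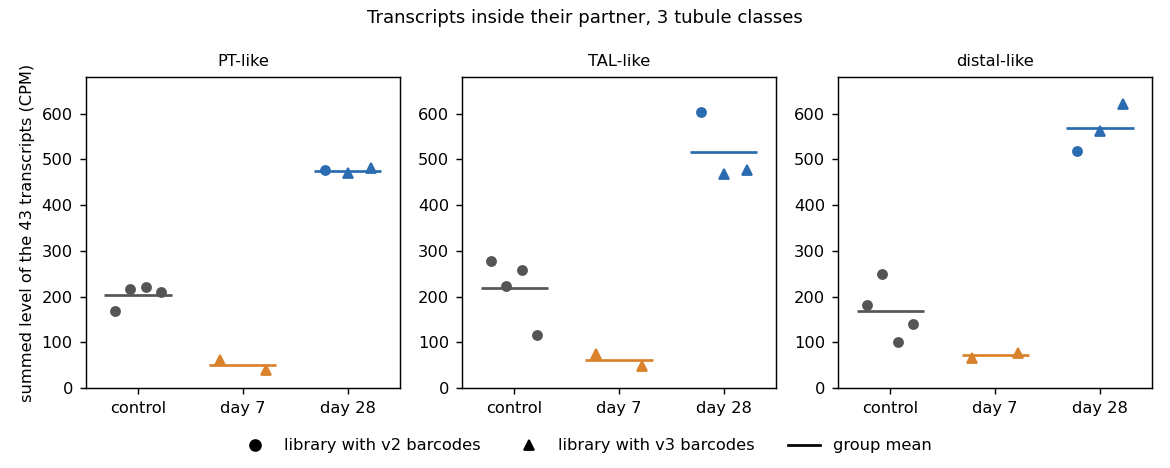
Summed level of the 43 transcripts inside their partner (vertical axis, CPM) in PT-like, TAL-like and distal-like nuclei, 1 point per library by group, with the barcode set as the symbol and the group mean as a line. In all 3 classes both day 7 libraries lie below every control and every day 28 library lies above every control.

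Single transcripts inside their partner are given beside the host. Sardhos (chr2:27189382-27234710, plus strand) lies within Sardh, the gene of a mitochondrial sarcosine dehydrogenase. Its level was 16.7, 21.1, 31.5 and 17.6 CPM in controls, 0.918 and 0.791 CPM at day 7 and 17.7, 10.3 and 14.5 CPM at day 28. Day 7 lay far below both other groups, which overlapped. It fell by 4.90 on the log2 scale at day 7 against control (SE 0.49, adjusted p = 1.24e-05 by edgeR) and rose by 3.93 from day 7 to day 28 (SE 0.50, adjusted p = 0.0014), under every alternative run. At day 28 against control it fell by 0.97 (SE 0.33, adjusted p = 0.0276 by edgeR), a call lost without control 3, without day 28 mouse 2 or 3 and with the barcode set as a term. Sardh itself had 60.3 to 116 CPM in controls, 22.9 and 35.9 CPM at day 7 and 25.2 to 30.9 CPM at day 28, so the host was low at both times while its opposite-strand transcript was higher at day 28 than at day 7.

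Adap2os (chr11:80158861-80177629, minus strand) lies within Adap2, which encodes a GTPase-activating protein for Arf proteins. It had 39.3, 42.7, 49.5 and 67.4 CPM in controls, 3.03 and 0.475 CPM at day 7 and 65.2, 18.3 and 29.4 CPM at day 28. Day 7 was again below both other groups, and the day 28 libraries were spread over the range of the controls and beneath it. It fell by 4.88 at day 7 against control (SE 0.65, adjusted p = 9.54e-05 by edgeR) and rose by 4.16 from day 7 to day 28 (SE 0.65, adjusted p = 0.00318), under every alternative run. Adap2 had 131 to 181, then 106 and 169, then 68.1 to 96.5 CPM, with no change past the threshold at day 7 against control (-0.36, adjusted p = 0.208 by edgeR).

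Sorbs2os and Pard3bos1 were near 0 in controls as well as at day 7. Sorbs2os (chr8:45723325-45819297, minus strand) lies within Sorbs2, an adaptor protein of the actin cytoskeleton. Sorbs2os had 0.202, 0.454, 0 and 0 CPM in controls, 0.826 and 0 CPM at day 7 and 16.0, 41.5 and 39.3 CPM at day 28. Sorbs2 had 1.39 to 6.30 CPM in controls but 151 and 170 CPM already at day 7 and 152 to 216 CPM at day 28. The host was thus high at both times and the transcript at day 28 alone. Sorbs2os had 625 UMIs at day 28 against 3 over the controls, a ratio of 248.5 (exact 95% interval 84.6 to 1208, counting error only), and the rise from day 7 to day 28 was 5.98 (log2, SE 0.81, adjusted p = 0.00173 by edgeR). Sorbs2os was also among the 10 leading genes of 1 cluster of injured-state PT-like nuclei, while the sums compared here are over all PT-like clusters.

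Pard3bos1 (chr1:61767415-61851540, minus strand) lies within Pard3b, a cell polarity gene, and had the same order of groups. It had 0.404, 0, 0.810 and 0 CPM in controls, 1.93 and 0 CPM at day 7 and 7.74, 39.1 and 55.9 CPM at day 28. Pard3b had 111 to 163 CPM in controls, 639 and 630 CPM at day 7 and 527 to 697 CPM at day 28. The transcript rose by 5.97 at day 28 against control (log2, SE 0.91, adjusted p = 0.000252 by edgeR), and by 4.94 from day 7 to day 28 (SE 1.01, adjusted p = 0.0135), a call that was lost without day 7 mouse 2, in a fit of the IRI libraries alone and by DESeq2.

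Hk1os (chr10:62340256-62363367, plus strand), within the hexokinase gene Hk1, was the 1 transcript inside its partner that rose at day 7. It had no UMI in any control, 3.03 and 3.64 CPM at day 7 and 2.21, 2.00 and 4.32 CPM at day 28. All 5 IRI libraries were above all controls. The fold bounds take these counts of 0 as true. Against a floor of 3 UMIs over the 4 controls the level was at least 21.2-fold higher at day 7 and at least 17.5-fold higher at day 28. Hk1 had 3.18 to 5.04 CPM in controls, 32.1 and 36.2 CPM at day 7 and 14.4 to 33.5 CPM at day 28, so this pair was higher together at both times. The fitted rises of 7.19 and 6.97 (log2) passed the threshold in PT-like sums (adjusted p = 0.000815 and 0.00103 by edgeR) and not in sums over all nuclei of each library, where they were 2.05 and 1.80. The Hk1os promoter window holds 21 CG, and only that of Sox6os, with 26, holds more among the 18 windows inside a partner.

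A further 5 named transcripts inside their partner fell at day 7 against control and rose from day 7 to day 28. Fhitos, within Fhit, a nucleotide hydrolase gene of great length, had 1.41, 4.54, 4.17 and 0 CPM in controls, 0.642 and 0 CPM at day 7 and 11.6, 11.0 and 12.3 CPM at day 28. Its day 28 libraries lay above every other library, and its rise from day 7 to day 28 was 4.82 (log2, SE 0.96, adjusted p = 0.0119 by edgeR). Lrrc8dos, within a gene for a subunit of the volume-regulated anion channel, had 2.02, 2.27, 2.55 and 1.89 CPM in controls, 0.367 and 0 CPM at day 7 and 9.40, 7.31 and 4.32 CPM at day 28. For Lrrc8dos day 28 lay above and day 7 below every control.

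Rsf1os1, within the chromatin remodelling gene Rsf1, had 1.61, 10.9, 7.06 and 5.04 CPM in controls, 1.84 and 0.158 CPM at day 7 and 9.95, 20.5 and 23.1 CPM at day 28, and its groups overlapped between control and each time. Anxa11os, within the annexin gene Anxa11, had 0.807, 0.681, 0.463 and 0 CPM in controls, no UMI at day 7 and 2.21, 2.51 and 2.16 CPM at day 28. With 0 taken as a true count, the level of Anxa11os was at least 13.6-fold higher at day 28 than at day 7. Ccdc34os had 1.82, 2.04, 0.810 and 3.78 CPM in controls, 0.184 and 0 CPM at day 7 and 1.66, 3.71 and 3.89 CPM at day 28. With 2 UMIs at day 7 against 58 at day 28 its ratio was 30.4 (exact 95% interval 8.045 to 257, counting error only).

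For these 5 the adjusted p at day 7 against control ran from 0.00292 (Lrrc8dos) to 0.016 (Fhitos) by edgeR, and from day 7 to day 28 from 0.0039 (Lrrc8dos) to 0.016 (Rsf1os1). Without day 7 mouse 2 both calls of Fhitos, Rsf1os1 and Anxa11os and the later call of Ccdc34os were lost, and without day 7 mouse 1 those of Anxa11os and the later call of Ccdc34os. The mean CPM of the hosts Fhit, Lrrc8d, Rsf1, Anxa11 and Ccdc34 was higher at day 7 than in controls: 1451 against 973, 382 against 264, 176 against 129, 58.4 against 33.3 and 22.7 against 12.9 CPM. Of these only Ccdc34 passed the threshold at day 7 (0.62, log2, SE 0.24, adjusted p = 0.0487 by edgeR).

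**Figure D4:**
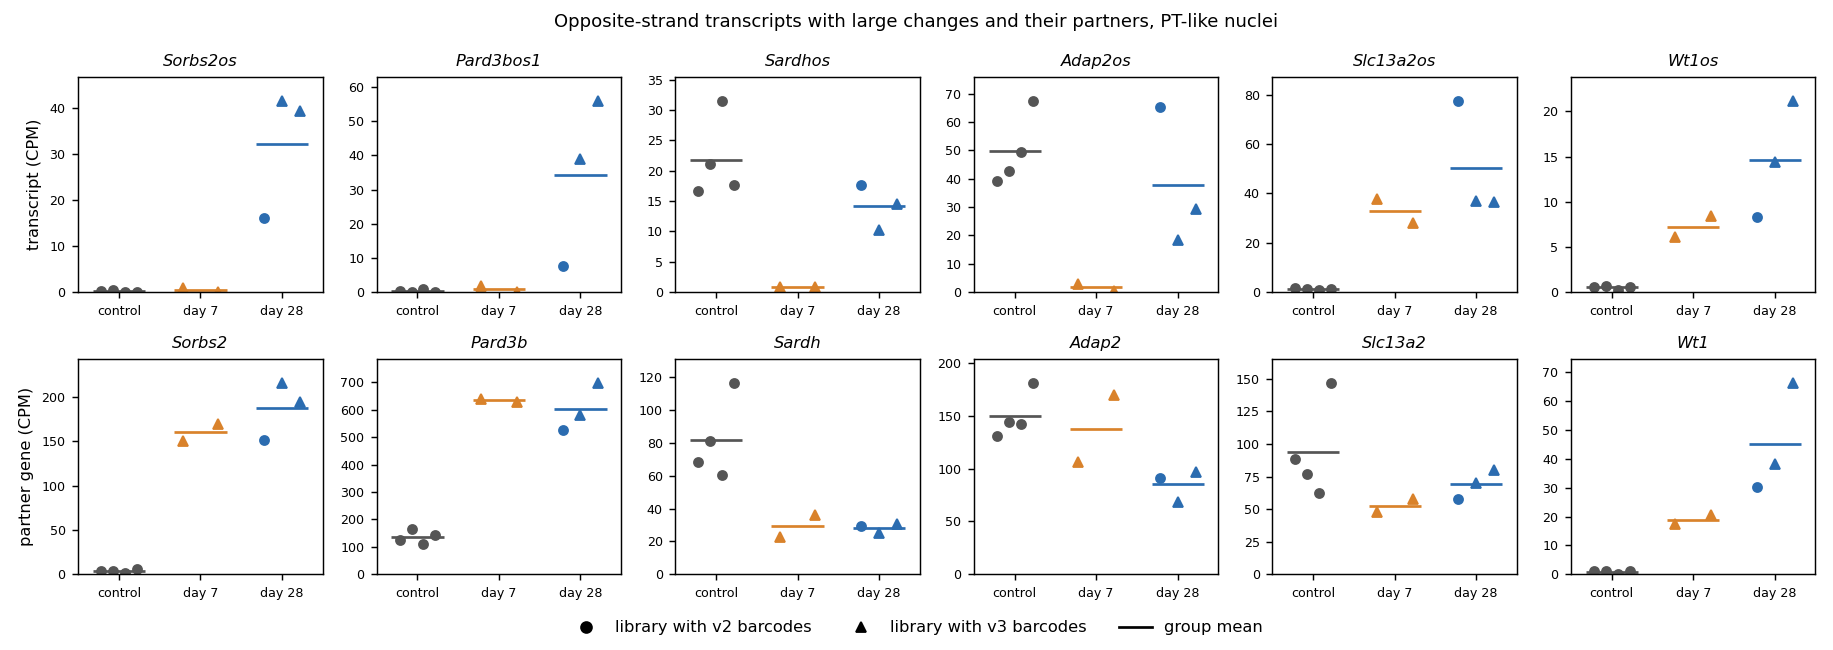
Level in PT-like nuclei (vertical axes, CPM) of 6 opposite-strand transcripts with large changes in the upper row and of their partners in the lower row, 1 point per library by group, with the barcode set as the symbol and the group mean as a line. Sorbs2os and Pard3bos1 are near 0 at day 7 although their partners are high there, Sardhos and Adap2os are near 0 at day 7 and higher at day 28, and Slc13a2os and Wt1os are higher in all 5 IRI libraries than in any control.

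Among transcripts whose 3' ends overlap those of the partner, Slc13a2os had the largest rise at day 7. Slc13a2 encodes a sodium-coupled transporter of citrate and other dicarboxylates of the proximal tubule, and Slc13a2os (chr11:78394485-78405657, plus strand) overlaps it by 8571 bases, 632 of them in exons of both. Slc13a2os had 1.61, 1.14, 0.694 and 1.26 CPM in controls, 37.7 and 28.0 CPM at day 7 and 77.4, 36.9 and 36.5 CPM at day 28. All 5 IRI libraries lay above all controls. It rose by 4.61 at day 7 (log2, SE 0.39, adjusted p = 3.37e-06 by edgeR) and by 5.15 at day 28 (SE 0.38, adjusted p = 1.27e-06), with no call between the times (0.55, SE 0.34, adjusted p = 0.38).

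Slc13a2 went the other way: 88.2, 77.2, 62.7 and 147 CPM in controls, 47.5 and 57.8 CPM at day 7 and 58.0, 70.3 and 80.1 CPM at day 28. It fell by 1.03 at day 7 (log2, SE 0.28, adjusted p = 0.00917 by edgeR) and by 0.63 at day 28 (SE 0.24, adjusted p = 0.0493). Per 100 UMIs of Slc13a2 there were 0.858 to 1.83 UMIs of Slc13a2os in controls, with no correction for length,, 79.5 and 48.5 at day 7 and 133, 52.4 and 45.6 at day 28. In the state with injured markers Slc13a2os had 41.0 and 30.2 CPM at day 7 and 105, 39.5 and 42.2 CPM at day 28. In the uninjured state it had 3.15 and 5.34, then 17.5, 15.5 and 7.81 CPM, above the 0.695 to 1.26 CPM of the controls, so the higher level was found mostly in the injured state, to which control libraries gave too few nuclei to compare. The rise at both times passed the threshold under every alternative run, also with the barcode set as a term. That term rests on day 28 mouse 1 against mice 2 and 3 alone.

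Scpep1os and Tmcc3os also overlap the 3' end of their partners. Scpep1os, beside the carboxypeptidase gene Scpep1, had 5.85, 11.1, 3.82 and 5.04 CPM in controls, 1.01 and 0 CPM at day 7 and 22.1, 12.3 and 13.2 CPM at day 28, while Scpep1 had 34.8 to 57.4 CPM over all 9 libraries. Day 7 lay below and day 28 above every control. The rise of Scpep1os from day 7 to day 28 was 4.61 (log2, SE 0.76, adjusted p = 0.00433 by edgeR), under every alternative run. Tmcc3os had 0.202, 0, 0 and 0 CPM in controls, 0.367 and 0 CPM at day 7 and 0, 6.71 and 4.96 CPM at day 28. The day 28 library without a UMI was that of mouse 1. As it is the only day 28 library with v2 barcodes, mouse, depth and barcode set cannot be told apart. Tmcc3 had 64.5 to 128, 240 and 293, and 181 to 282 CPM. The ratio of Tmcc3os at day 28 to the controls, 107, rests on 1 control UMI and has an exact 95% counting interval of 18.8 to 4287, and the fitted change of 5.67 (adjusted p = 0.00349 by edgeR) turned to -1.91 (log2) with the barcode set as a term. Nudt12os, which lies around Nudt12, had 0.404, 0, 0.347 and 0 CPM in controls, no UMI at day 7 and 3.32, 3.41 and 4.10 CPM at day 28. With 0 taken as a true count, the day 28 level of Nudt12os was at least 20.6-fold higher than that at day 7. Nudt12, an enzyme that removes NAD caps of RNA, had 11.3 to 27.6 CPM throughout.

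Hoxb3os and Slc7a6os passed no threshold in the 3 comparisons while their partners changed. Hoxb3os, beside a homeobox gene, had 23.8, 39.3, 35.9 and 29.0 CPM in controls, 32.5 and 36.7 CPM at day 7 and 44.8, 44.9 and 45.3 CPM at day 28, where all 3 libraries lay above every other, with adjusted p = 0.636, 0.467 and 0.464 by edgeR at day 7, at day 28 and between them. Hoxb3 had 3.15 to 9.89 CPM in controls, 113 and 122 CPM at day 7 and 29.9, 91.3 and 115 CPM at day 28. The ratio of the pair, tested in a fit of both genes with the library as a block, fell by 3.92 at day 7 (log2, SE 0.56, adjusted p = 0.00025 by edgeR) and by 2.82 at day 28 (SE 0.50, adjusted p = 0.00151). Slc7a6os, a protein-coding gene with its 3' end 2010 bases from that of Slc7a6, had 36.9, 35.0, 33.9 and 47.2 CPM in controls, 33.8 and 30.2 CPM at day 7 and 59.7, 34.1 and 39.7 CPM at day 28. Slc7a6, an amino acid exchanger gene, had 0 to 1.89, then 36.8 and 27.2, then 11.2 to 17.5 CPM, and the ratio fell by 5.55 at day 7 (SE 0.69, adjusted p = 0.000124 by edgeR).

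Hnf4aos (chr2:163493807-163541720, minus strand) starts within the span of Hnf4a, 34912 bases from its start, and overlaps it by 34913 bases, with no exon of both in common. It had 208, 183, 196 and 197 CPM in controls, 109 and 124 CPM at day 7 and 118, 94.4 and 258 CPM at day 28. Day 7 lay below the controls, and at day 28 mouse 3 was above and mice 1 and 2 below them. The day 7 change was -0.996 (log2, SE 0.35, adjusted p = 0.0297 by edgeR), a call lost without either day 7 mouse, with the barcode set as a term and in sums over all nuclei. Hnf4a had 189 to 253, 155 and 177, and 125 to 193 CPM, and fell by 0.59 (SE 0.22, adjusted p = 0.0423 by edgeR) and 0.73 (SE 0.20, adjusted p = 0.00996) at day 7 and day 28, and the ratio of the pair did not pass the threshold in any of the 3 comparisons (adjusted p = 0.42 at day 7, 0.94 at day 28 and 0.47 between them, edgeR). Hnf4aos was among the 10 leading genes of 2 PT-like clusters made of IRI nuclei alone. That also held for 2 such clusters when transcripts and partners were left out of the variable genes. In the uninjured state the level of Hnf4aos was 768 and 721 CPM at day 7 and 336, 621 and 1364 CPM at day 28, against 183 to 209 CPM in controls. These levels are a description only, since the clusters used for them were formed without leaving this gene out.

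Wt1os (chr2:105076538-105126510, minus strand) starts 19 bases from Wt1 and runs away from it. It had 0.605, 0.681, 0.231 and 0.630 CPM in controls, 6.15 and 8.39 CPM at day 7 and 8.29, 14.4 and 21.2 CPM at day 28. Wt1 had 1.01, 1.14, 0.231 and 1.26 CPM, then 17.3 and 20.6 CPM, then 30.4, 38.4 and 66.3 CPM. Both genes were above all controls in all 5 IRI libraries. Wt1os rose by 3.59 at day 7 (log2, SE 0.51, adjusted p = 0.000154 by edgeR) and by 4.63 at day 28 (SE 0.48, adjusted p = 1.53e-05), under every alternative run, and the ratio of the pair did not pass the threshold (-0.78, adjusted p = 0.343 at day 7 and -0.999, adjusted p = 0.284 at day 28, edgeR). Both are best known from podocytes: podocyte-like nuclei, 79 in all, had 96.2 to 668 CPM of Wt1os in controls, 698 and 836 CPM at day 7 and 919 to 1177 CPM at day 28. In the PT-like sums the 6 podocyte markers together had 93.4 to 109 CPM in controls, 96.5 and 107 CPM at day 7 and 135 to 141 CPM at day 28, most of it Clic5 and, after IRI, Synpo, while Nphs1, which encodes nephrin and defines podocytes, was at 0 to 3.32 CPM.

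Emx2os, which overlaps the start of the homeobox gene Emx2 by 264 bases, had 45.0, 33.1, 39.0 and 28.3 CPM in controls, 116 and 142 CPM at day 7 and 37.6, 84.3 and 93.9 CPM at day 28. It rose by 1.55 at day 7 (log2, SE 0.33, adjusted p = 0.00232 by edgeR). Emx2 had 23.2 to 43.6, 53.7 and 63.2, and 36.5 to 65.8 CPM. Within day 28 the Emx2os level of the library with v2 barcodes lay in the range of the v2 controls and both v3 libraries lay above it, and the day 7 call was lost with the barcode set as a term. Junos, which overlaps the start of the AP-1 gene Jun, had 7.26, 4.09, 3.94 and 6.93 CPM in controls, 13.1 and 13.3 CPM at day 7 and 11.1, 11.5 and 11.2 CPM at day 28, without overlap, and its rises of 1.05 (SE 0.31, adjusted p = 0.0139 by edgeR) and 0.81 (SE 0.29, adjusted p = 0.0372) were lost under the same term and without either day 7 mouse, and that at day 28 also without control 2 or 3 or day 28 mouse 2 or 3. Jun had 16.6 to 33.4, 61.4 and 41.8, and 66.7 to 85.6 CPM. Man2c1os, beside a cytosolic mannosidase gene, had 27.8, 46.1, 26.9 and 33.4 CPM in controls, 24.0 and 21.8 CPM at day 7 and 112, 45.8 and 44.7 CPM at day 28, where mouse 1 stood apart. Man2c1 had 14.5 to 39.7, 15.9 and 23.4, and 13.4 to 18.2 CPM. Man2c1os rose by 1.495 (log2, SE 0.39, adjusted p = 0.0422 by edgeR) from day 7 to day 28, a call lost without control 1, 3 or 4, without either day 7 mouse and in a fit of the IRI libraries alone.

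Brip1os and Ino80dos passed the threshold in none of the 3 comparisons by edgeR. Brip1os, 177 bases from the start of the DNA helicase gene Brip1, had 73.8, 86.5, 57.1 and 124 CPM in controls, 93.8 and 112 CPM at day 7 and 101, 113 and 142 CPM at day 28. Ino80dos, beside the gene of a subunit of the INO80 chromatin remodelling complex, had 87.0, 55.4, 64.4 and 76.2 CPM, then 64.1 and 67.6 CPM, then 68.0, 55.6 and 58.3 CPM. For both, the groups overlapped. Ino80d had 134 to 224 CPM over all 9 libraries. Brip1 had 8.33 to 15.1 CPM in controls, 17.4 and 16.5 CPM at day 7 and 6.11 to 8.85 CPM at day 28, and the ratio of Brip1os to Brip1 rose by 1.125 at day 28 against control (log2, SE 0.30, adjusted p = 0.0139 by edgeR) and by 1.47 against day 7 (SE 0.34, adjusted p = 0.00695).

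**Figure D5:**
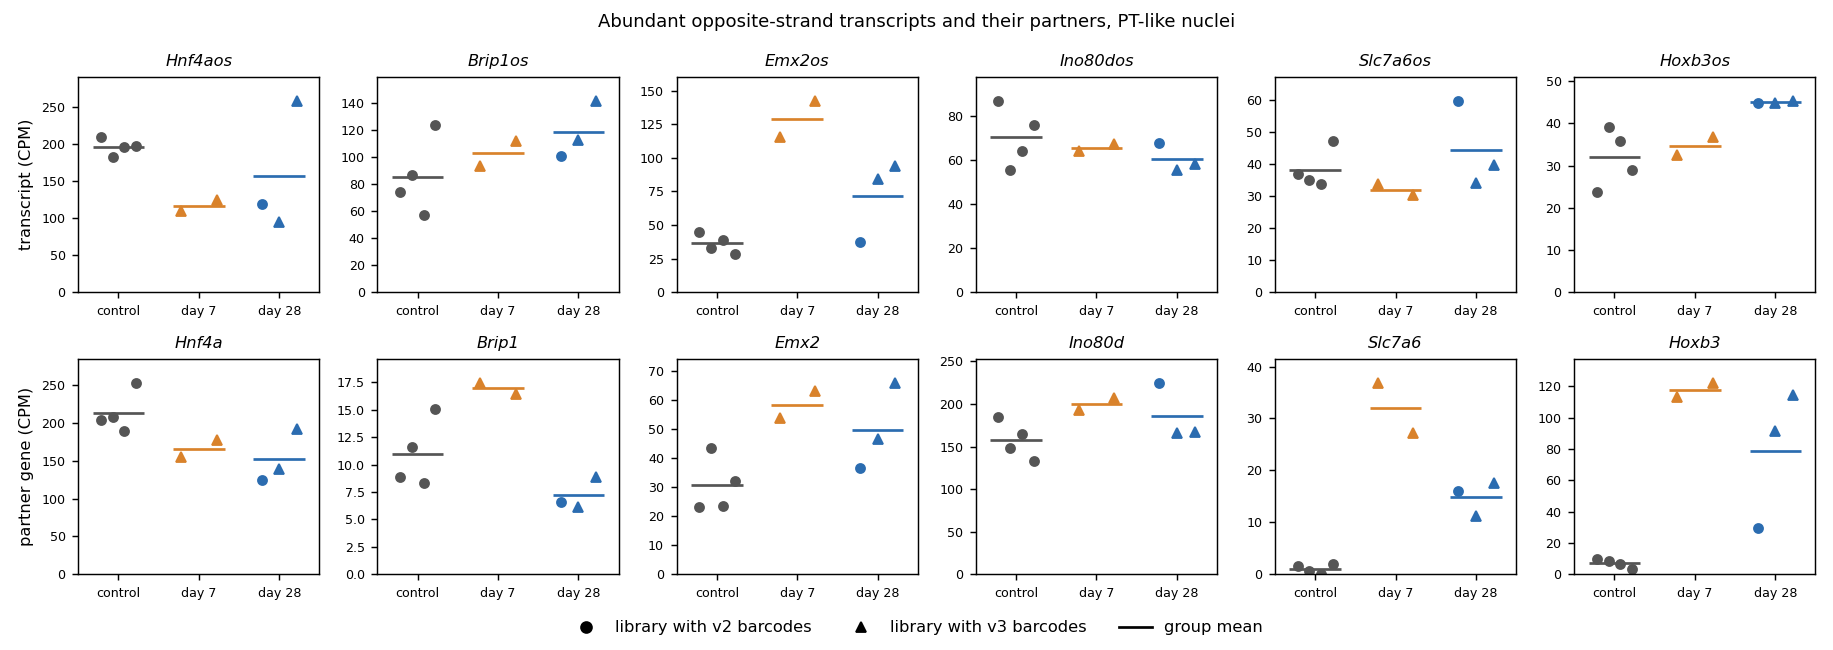
Level in PT-like nuclei (vertical axes, CPM) of 6 of the 8 transcripts with the highest mean CPM in the upper row and of their partners in the lower row, 1 point per library by group, with the barcode set as the symbol and the group mean as a line. Brip1os, Ino80dos, Slc7a6os and Hoxb3os passed no threshold between groups, Emx2os was higher at day 7 than in any control, and Slc7a6 and Hoxb3 of the lower row differ between control and all 5 IRI libraries without overlap.

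Over all pairs, the ratio of transcript to partner was tested in 3584 pairs of overlapping or closely starting opposite-strand genes, 110 of them defined by symbol. At day 7 against control the ratio rose in 6 and fell in 37 of the 110, which is 39.1% called against 40.5% of all such pairs. At day 28 against control it rose in 19 and fell in 9, 25.5% against 29.9%. From day 7 to day 28 it rose in 36 and fell in 0 by edgeR, 32.7% against 24.5% of all pairs. The shares called at day 7 and day 28 against control were thus no higher than in other opposite-strand pairs. With 1 UMI counted as 1 molecule and no correction for length, the median over the 115 was 8.12 UMIs of the transcript per 100 of the partner in controls, 2.59 at day 7 and 8.89 at day 28.

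The other classes had few UMIs. By mean CPM over libraries, Wt1os was the highest in podocyte-like nuclei, Adap2os in the stroma-like nuclei (2 UMIs in controls, 3 at day 7 and 53 at day 28, with no such nuclei in control 4), Junos in endothelium-like and Rsf1os1 in leukocyte-like nuclei, the last on 1 UMI in a small control sum, 0 at day 7 and 2 at day 28, where Brip1os had 0, 10 and 8 UMIs. In TAL-like nuclei 6 transcripts could be tested between the 5 IRI and 4 control libraries, and edgeR called 0, with 0 at an unadjusted p under 0.05 and 0 by DESeq2, where 12.7% of 3454 genes were called, 3.24% higher and 9.41% lower. This comparison averages day 7 and day 28, so opposite changes at these times can cancel. It therefore cannot show whether a transcript changed at either time alone. For Emx2os the difference between IRI and control was -0.12 (log2, SE 0.34, adjusted p = 0.88 by edgeR). Emx2os had 80.1 to 133 CPM in TAL-like nuclei of controls, 127 and 115 CPM at day 7 and 57.9 to 145 CPM at day 28, with overlap. In distal-like nuclei it had 33.4 to 62.5, 125 and 270, and 33.8 to 151 CPM, where the library with v2 barcodes was the lowest of day 28.

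The remaining transcripts are given by count. Of the 83 tested in PT-like nuclei 52 passed the threshold in at least 1 comparison, 33 of them among the 59 outside the rule for values per library. The share of all 14239 genes that passed in at least 1 comparison was not counted. Per comparison, 51.1% of all genes passed at day 7 against control, 45.3% at day 28 against control and 5.53% between the times. Of the 33 transcripts, 1 rose (1.56, log2) and 20 fell (by 0.58 to 4.31) at day 7 against control by edgeR, 15 rose (0.99 to 4.13) and 6 fell (by 0.92 to 2.47) at day 28 against control, and 13 rose (1.61 to 4.57) from day 7 to day 28. Far1os, within the fatty acyl-CoA reductase gene Far1 and chosen after its values were seen, is an example: 18.6, 25.4, 22.6 and 15.1 CPM in controls, 4.96 and 0.633 CPM at day 7 and 65.8, 74.4 and 72.3 CPM at day 28, with Far1 at 271 to 346 CPM in all 9 libraries. The other 26 tested passed in none of the 3 comparisons, and 32 had too few UMIs to be tested, with at most 6.93 CPM in any library.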

How the data were processed

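Single-nucleus 3' RNA libraries of GFP-sorted kidney nuclei from 9 mice (4 control, 2 at day 7 and 3 at day 28 after IRI) were measured as UMI counts per gene and nucleus. Per the submitters' processing notes the authors used Cell Ranger, STAR and Seurat with build mm10, with versions not given in the sources used here. The deposited UMI counts are in 2 tables, 1 for controls and 1 for IRI, and only genes of both were tested. The members and lists were chosen with earlier results of these data known.

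All nuclei in the tables were kept and no doublet caller was run. Log-normalized counts (2000 variable genes, 30 components, 20 neighbours, resolution 2, scanpy 1.11.5) were clustered. Clusters were named from marker lists by marker levels scaled between the lowest and highest cluster, with a mean of at least 0.4, at least 3 raised markers and no other kind of cell at 0.5 or more. This is the third naming rule tried, after a mean log2 difference from other nuclei and a limit of 0.4 for other kinds, so it was set with scores seen. Clusters that failed stayed unnamed (3452 nuclei).

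UMIs were summed per library and class and tested with edgeR 4.0.16 (R 4.3.3) in 1 fit of all 9 libraries, with TMM factors, its filter on low counts and an adjusted p of 0.05. Ratios of transcript to partner were tested in stacked counts with library as a block over 3584 opposite-strand pairs. DESeq2 1.42.0 was an alternative, besides other scaling, filters, nuclei, clusterings, barcode set, replicate block and each library left out. On simulated counts the test recovered 86% of 4-fold and 19% of 2-fold changes at day 28 against control over 12832 genes, and 43% and 10% over 2835 ratios. Library sizes were 1833617 to 14641038 UMIs, and intervals and floors cover counting error only. They take the counts as complete, and whether low counts had been left out of single libraries was not tested. Which kit each library used was read from its cell barcodes.

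Values per library were given for the 14 called transcripts with the largest change, the 8 with the highest mean level and the highest in each other class, except 1 transcript and 1 marker not reported here. Arrangements and coordinates are from GENCODE vM21 and promoter windows from RefSeq.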

Additional observations from a re-analysis of the deposited data

Results flagged for a closer look

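In controls 2 of the 24 transcripts examined per library had 1 mouse far from the other 3, and chance alone sets apart about 1 in 20 such groups. Tmcc3os had 0.202 CPM in control 1, which is 1 UMI, and no UMI in the other three controls. Wt1os had 0.231 CPM in control 3 against 0.605 to 0.681 CPM in the others, also on very few UMIs per library. For such low counts the rate of 1 in 20 need not hold, and neither value shows that a mouse differed.

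For Lrrc8dos and Scpep1os every day 7 library lay below and every day 28 library above the controls. The difference between the times was tested directly by edgeR and was 4.79 (log2, SE 0.78, adjusted p = 0.0039) for Lrrc8dos and 4.61 (log2, SE 0.76, adjusted p = 0.00433) for Scpep1os.

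Of the opposite-strand symbols listed in the IRI table alone, Ppp1r18os had the highest mean at day 28, with 4.15, 2.06 and 4.43 CPM over all nuclei at day 28 and 1.78 and 1.61 CPM at day 7. No control value was analysed for it.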

How the results depend on the processing

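Of 124 refits of the counts of changed transcripts and ratios, 102 were within 1.5 times the reported count. The 35 calls at day 7 against control became 12 with the barcode set as a term and 19 to 43 when 1 library was left out (19 without day 7 mouse 2, 23 without mouse 1). The 32 at day 28 against control became 14 with the barcode term, 9 in v2 libraries alone and 18 to 40 with 1 library left out (18 and 21 without day 28 mouse 2 or 3). The 25 from day 7 to day 28 became 15 in a fit of the IRI libraries alone, 40 in v3 libraries alone and 9 to 31 with 1 library left out. Transcripts neither inside nor around their partner, a count added after seeing the data, gave 19, 15 and 6. In TAL-like sums 0 became 1 (lower) without a filter on low counts and stayed 0 to 0 with 1 library left out. Ratio calls went from 43 to 10 (day 7) and from 28 to 5 (day 28) with the barcode term, to 1 in v2 libraries alone at day 28, and to 24 to 48, 15 to 36 and, for the 36 between the times, 27 to 40 with 1 library left out. The lowest of these came without day 7 mouse 2 (24), day 28 mouse 2 (15) and day 7 mouse 2 (27), and 17 remained at day 28 without mouse 3. The causes were not tested.

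Of 718 refits of 37 single calls, 637 stayed past the threshold, 80 did not, and 1 changed sign: Tmcc3os at day 28 against control was -1.91 with the barcode term. Under that term 13 of the 37 calls were lost, and 14 passed in every refit. The replicate numbers were not taken to pair mice. Correlations of same-numbered libraries were -0.275 to 0.011 and those of differently numbered libraries -0.197 to 0.23. With so few libraries these values cannot show whether mice were paired. The fit with the replicate number as a block gave 26, 27 and 13 calls in the 3 PT-like comparisons and 0 in TAL-like sums.

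A fit within 1 barcode set at day 7 against control was not run, because the sets do not overlap there. The barcode term used in that comparison rests on day 28 mouse 1 against mice 2 and 3 alone. Most transcripts had few UMIs, so small changes were not detectable at this depth.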

Other observations

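A further 41 symbols of this kind had a listed partner but occurred in the IRI table alone, so no comparison with control was made. Over all nuclei they summed to 11.2 and 8.95 CPM at day 7 and to 9.55, 31.7 and 43.5 CPM at day 28. Of the 41, 25 had no UMI at day 7 and 4 had none at day 28. Each of the 41 had either 0 or at least 3 UMIs in each IRI library. Lower counts may thus have been left out and given as 0, which was not tested. The counts of 25 and 4 are therefore no measure of change. Grip1os2, within Grip1, had no UMI at day 7 and 1.66, 3.94 and 3.12 CPM at day 28, and was chosen after its values were seen.

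Other long noncoding RNAs, from a list of 39 symbols of which 19 were tested in PT-like sums, were called at a lower share than all genes in both PT-like comparisons with control. At day 7 against control 2 rose and 4 fell (31.6% called), at day 28 against control 2 rose and 3 fell (26.3%), and from day 7 to day 28 1 was called, lower (5.26%), by edgeR. In TAL-like sums at IRI against control 3 of 7 tested fell (42.9%), where 12.7% of all genes were called. The list's rule of symbols ending in ot or as also took Leprot and Hras, which encode proteins. Malat1, a nuclear RNA of the speckles, fell by 1.55 at day 7 (log2, SE 0.38, adjusted p = 0.00472 by edgeR), and Neat1, the scaffold of paraspeckles, had a log2 difference of 0.03 there (SE 0.28, adjusted p = 0.939). In TAL-like sums Neat1 fell by 0.81 (log2, SE 0.23, adjusted p = 0.0249 by edgeR) and Malat1 by 1.30 (SE 0.21, adjusted p = 0.000224).

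Some protein-coding genes that lie under a gene of the other strand had the same order of groups, and 3 examples were chosen after their values were seen. Apobec4 had 2.62, 2.95, 2.43 and 3.15 CPM in controls, no UMI at day 7 and 12.2, 5.81 and 4.75 CPM at day 28. Amelx, which encodes an enamel protein, had 0 to 1.14 CPM in controls, no UMI at day 7 and 9.95, 2.40 and 1.94 CPM at day 28. Rptn, a gene of the epidermis, had 0 to 0.681 CPM, no UMI, and 0, 2.10 and 3.02 CPM.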
